A study of Mus musculus with 8 samples.

Results

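In NIH3T3 cells, an established line of mouse embryonic fibroblasts, the genes examined here were those whose nuclear RNA stood on the same side of the untreated level in every stressed library. Each of the 3 stresses lasted 2 h and had 2 libraries: heat shock (44 °C), KCl at 200 mM as an osmotic stress, and H2O2 at 0.2 mM as an oxidative stress. Untreated cells of the same line gave the other 2 libraries. All 8 libraries came from nuclear-enriched RNA depleted of ribosomal RNA, so the values describe RNA in the nucleus and not the whole cell. A row of the deposited tables, which is a gene model, was a member when all 6 stress values lay above, or all 6 lay below, both untreated values. Rows were considered when they reached 1 RPKM (reads per kilobase of gene model, scaled to the mapped reads of the library) in at least 2 of the 8 libraries. Of 48676 rows, 14261 passed this filter and 1116 of these were members (7.83%): 527 higher (3.7%) and 589 lower (4.13%) in the stressed libraries. These values chose the members, so their direction is a description and not a finding.

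Heat, hyperosmolarity and oxidants damage different parts of a cell, but their signals meet on shared kinases. Stress-activated MAP kinases switch on immediate early genes, which are transcribed without new protein synthesis, and kinases of the translation factor eIF2 start the integrated stress response. Heat in addition activates the transcription factor HSF1, which drives the genes of cytosolic chaperones. RNA in the nucleus follows recent transcription more closely than RNA of whole cells, because much of it is newly made.

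The libraries matched their label as fibroblasts. Of 15 fibroblast markers, 14 passed the filter, and their summed level was 6320 and 6350 RPKM after heat shock, 8100 to 11400 RPKM after the other stresses and 10500 to 11200 RPKM in untreated cells. The 21 markers of other cell types summed to 12.8 to 35.9 RPKM in stressed libraries and 24 to 35.9 RPKM in untreated ones, mostly from Cd68 and Des. The muscle and T-cell markers Myog and Cd3e were at 0 in 7 of the 8 libraries. Others rose after oxidative stress: Tubb3 had 1.99 and 0.521 RPKM, against 0 and 0.0101 RPKM in untreated cells. Cdh1 had 1.01 and 0.663 RPKM, against 0.0236 and 0.0235 RPKM, and Pecam1 0.887 and 0.515 RPKM, against 0.0337 and 0.0167 RPKM. RPKM summed to between 503400 and 771700 over the rows of 7 libraries, but to 1943000 in osmotic stress replicate 1. There the row AC113316.1 alone held 1025000 RPKM, and Malat1, an abundant nuclear long non-coding RNA, was listed at 0 against 1844 to 2332 RPKM elsewhere. Without that library 564 rows lay higher and 940 lower. The labels do not say whether replicates were separate cultures, so the p-values below measure the spread between these libraries, which may be technical. In bulk RNA, fewer cells of a kind and less RNA per cell cannot be told apart.

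The difference between the average of the 3 stresses and untreated cells was tested with limma on log2(RPKM + 0.5) over all 14261 rows. It called 44 rows (0.309%) at an adjusted p under 0.05, 29 higher (0.203%) and 15 lower (0.105%). Of the called rows, 21 were members (11 higher and 10 lower) and 23 were not. With 6 libraries against 2, the smallest two-sided p that exact permutation allows is 0.0714, above 0.05, and the calls therefore rest on the spread limma shares across rows. At an unadjusted p under 0.05, limma found 2420 rows. Members moved by modest amounts: the median log2 change was 0.53 among higher members and -0.52 among lower members, and 84 and 47 of them changed by at least 1 on the log2 scale. Higher rows were 47.2% of the members, but 29% of the rows that met the rule when every library was scaled to a common sum. The share was 49.7% under median-of-ratios scaling and 42.8% under quantile normalization. Against untreated cells, single stresses passed the limma test in 2.51% of rows higher and 4.51% lower after heat shock, 0.512% and 0.302% after osmotic stress, and 0.61% and 0.112% after oxidative stress. Between stresses, 9.17% of rows differed for heat shock against osmotic stress, 13.1% for heat shock against oxidative stress and 20.6% for osmotic against oxidative stress.

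The protein-coding members that rose past the limma threshold were Dusp1, Ppp1r15a, Jun, Ereg, Kctd18 and Primpol. Dusp1 encodes a nuclear phosphatase that switches off stress-activated MAP kinases. It had 34.7 and 31.0 RPKM after heat shock, 7.04 and 7.38 RPKM after osmotic stress and 9.11 and 5.91 RPKM after oxidative stress, against 2.83 and 2.86 RPKM in untreated cells. Heat shock stood above the other stresses, and the stressed and untreated libraries did not overlap, as the rule requires of every member. Against untreated cells only heat shock passed on its own (limma adjusted p = 0.000681). The limma adjusted p was 0.0589 for osmotic and 0.0611 for oxidative stress. The average log2 change was 1.92 ± 0.17 (SE; limma adjusted p = 0.0130). Heat shock exceeded osmotic stress by 2.11 ± 0.20 on the log2 scale (limma adjusted p = 0.00649) and oxidative stress by 2.08 ± 0.20 (limma adjusted p = 0.00507).

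Ppp1r15a encodes GADD34, the phosphatase subunit that reverses phosphorylation of eIF2 and so restores translation. It had 53.8 and 35.2 RPKM after heat shock, 15.2 and 12.9 RPKM after osmotic stress and 30.5 and 25.2 RPKM after oxidative stress, against 6.57 and 7.29 RPKM in untreated cells. The stressed and untreated libraries did not overlap, as the rule requires, and osmotic stress was the nearest to untreated cells. The average log2 change was 1.82 ± 0.18 (limma adjusted p = 0.0199). On its own, osmotic stress did not pass against untreated cells (limma adjusted p = 0.0915).

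Jun, a subunit of the transcription factor AP-1, had 91.0 and 89.7 RPKM after heat shock, 22.4 and 19.97 RPKM after osmotic stress and 68.7 and 39.3 RPKM after oxidative stress, against 12.7 and 9.33 RPKM in untreated cells. Its average log2 change was 2.04 ± 0.22 (limma adjusted p = 0.0268). Against untreated cells, osmotic stress did not pass on its own (limma adjusted p = 0.125). Osmotic stress again gave the lowest of the stress levels, below oxidative stress by 1.28 ± 0.27 on the log2 scale (limma adjusted p = 0.0286).

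Ereg and Kctd18 each had a single stress far above the others. Ereg, which encodes the EGF receptor ligand epiregulin, had 11.3 and 12.2 RPKM after heat shock, 12.8 and 11.8 RPKM after osmotic stress and 58.0 and 54.3 RPKM after oxidative stress, against 6.90 and 9.33 RPKM in untreated cells. Its average log2 change was 1.28 ± 0.14 (limma adjusted p = 0.0247), but against untreated cells only oxidative stress passed on its own, at 2.73 ± 0.17 (limma adjusted p = 0.00237). Kctd18 had 43.3 and 44.2 RPKM after heat shock, 7.89 and 7.23 RPKM after osmotic stress and 9.53 and 8.87 RPKM after oxidative stress, against 5.96 and 7.17 RPKM in untreated cells. It counted as a member by a narrow margin, since osmotic stress replicate 2 was barely above untreated replicate 2. Its average log2 change was 1.10 ± 0.11 (limma adjusted p = 0.0216). Only heat shock passed on its own against untreated cells (limma adjusted p = 0.000509).

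Primpol encodes a primase-polymerase that restarts stalled replication forks. It had 1.62 and 1.37 RPKM after heat shock, 1.61 and 1.15 RPKM after osmotic stress and 1.24 and 1.32 RPKM after oxidative stress, against 0.236 and 0.158 RPKM in untreated cells. Of the 9 named genes it was the only one that limma's F test among the stresses did not call (adjusted p = 0.795). The average log2 change was 1.43 ± 0.18 (limma adjusted p = 0.0443). Both untreated values were under 1 RPKM, so this row passed the filter only through its stressed libraries, and its call is descriptive. Against untreated cells heat shock passed on its own (limma adjusted p = 0.0172). The limma adjusted p was 0.05 for osmotic and 0.0591 for oxidative stress. A second row of the same gene, under the older symbol Ccdc111, had 1.43 to 3.08 RPKM in stressed cells and 2.84 and 2.57 RPKM in untreated cells, and these groups overlapped. The call therefore belongs to 1 of the 2 rows of the gene.

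**Figure D1:**
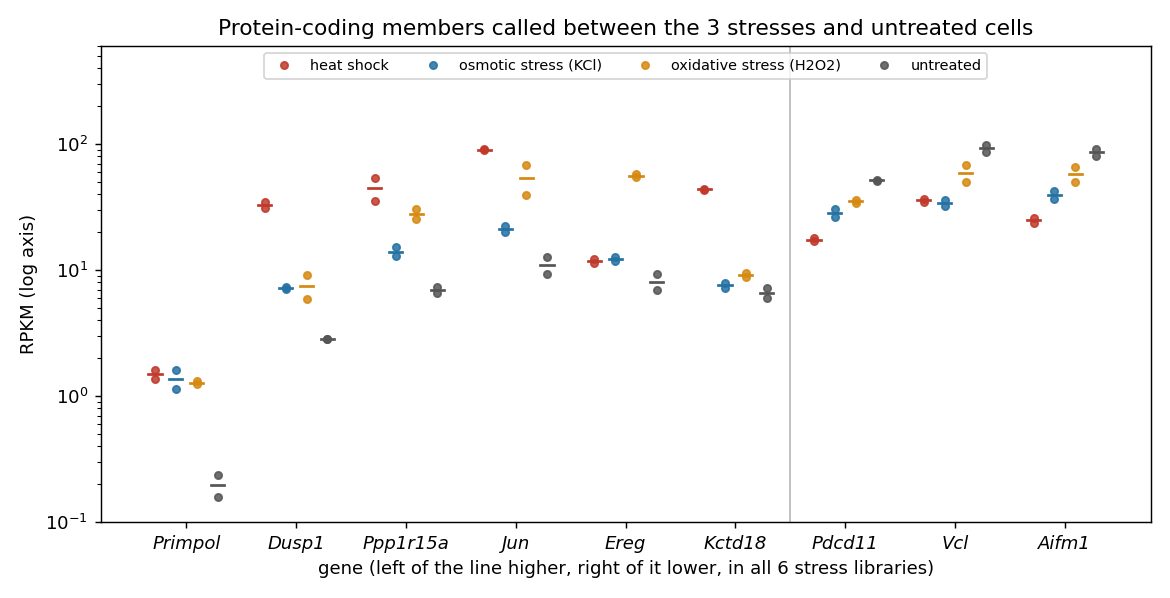
RPKM on a log axis of 9 protein-coding members called between the 3 stresses and untreated cells; each dot is a library, each short line the mean of the 2 libraries of a group, and colours mark heat shock, osmotic stress, oxidative stress and untreated cells. By the rule, the untreated dots lie lowest for the 6 genes left of the vertical line and highest for the 3 genes right of it.

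The promoters of Dusp1, Ppp1r15a, Jun and Kctd18 are shown because they hold letters that the search below counted across members. The sequences are the 250 bases before the start from RefSeq (GRCm38.p6), 5′ to 3′ on the gene's strand, at chr17:26508473-26508722 for Dusp1, chr7:45526269-45526518 for Ppp1r15a, chr4:95052223-95052472 for Jun and chr1:57970085-57970334 for the upstream promoter of Kctd18, all on the minus strand. Capitals mark the cAMP response element TGACGTCA, which CREB and ATF factors bind, in Dusp1 and Ppp1r15a, and the heat shock element core GAANNTTC in Jun and Kctd18.
Dusp1: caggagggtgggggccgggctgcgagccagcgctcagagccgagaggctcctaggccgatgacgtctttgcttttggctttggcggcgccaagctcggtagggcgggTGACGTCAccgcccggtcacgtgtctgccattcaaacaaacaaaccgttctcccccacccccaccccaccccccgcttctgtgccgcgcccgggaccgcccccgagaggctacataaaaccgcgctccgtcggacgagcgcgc
Ppp1r15a: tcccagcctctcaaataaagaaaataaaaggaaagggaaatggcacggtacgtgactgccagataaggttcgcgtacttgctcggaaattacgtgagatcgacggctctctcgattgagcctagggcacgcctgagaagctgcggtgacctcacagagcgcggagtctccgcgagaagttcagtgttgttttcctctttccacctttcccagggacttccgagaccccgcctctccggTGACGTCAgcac
Jun: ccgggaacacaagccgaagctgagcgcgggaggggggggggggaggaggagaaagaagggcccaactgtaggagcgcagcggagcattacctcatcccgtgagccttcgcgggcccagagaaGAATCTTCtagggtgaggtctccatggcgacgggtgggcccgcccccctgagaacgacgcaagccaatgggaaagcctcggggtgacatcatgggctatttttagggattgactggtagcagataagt
Kctd18: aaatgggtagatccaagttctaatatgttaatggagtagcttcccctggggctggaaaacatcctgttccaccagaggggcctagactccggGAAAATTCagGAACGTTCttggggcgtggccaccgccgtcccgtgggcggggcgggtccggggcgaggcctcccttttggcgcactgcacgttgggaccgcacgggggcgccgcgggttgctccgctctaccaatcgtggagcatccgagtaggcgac

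The cAMP response element was searched on both strands from 250 bases before to 50 after each start. It was found in 29 of 386 promoters of higher members (7.51%), which belonged to 28 genes, and in 11 of 465 promoters of lower members (2.37%). Across 10464 promoters of all protein-coding genes tested it occurred in 336 (3.21%), and across all 32851 promoters of the table in 588 (1.79%). Beside Dusp1 and Ppp1r15a, the genes with it included Maff, a small Maf protein that pairs with factors such as NRF2, Zfand2a, a proteasome-associated gene that arsenite and heat induce, and the small GTPases Rap1b and Rab5a. Rap1b had 50.9 and 50.9 RPKM after heat shock, 48.6 and 38.6 RPKM after osmotic stress and 28.9 and 25.4 RPKM after oxidative stress, against 21.9 and 20.6 RPKM in untreated cells, but did not pass the limma test (adjusted p = 0.0585). The heat shock element core was in 8.03% of promoters of higher members and 6.88% of those of lower members, against 5.8% of all tested and 7.86% of the whole table. The AP-1 site TGACTCA was in 4.66% and 2.15%, against 3.68% of all tested and 5.2% of the whole table. The TATA box, GC box, CCAAT box, antioxidant response element and E box were also searched. In that order they were in 5.7%, 65%, 37.3%, 15.8% and 11.4% of promoters of higher members. The shares were 5.38%, 63.4%, 41.9%, 14.4% and 11.2% for lower members and 6.48%, 64.6%, 38.8%, 14.3% and 10% for all tested. The promoter table covered 304 of 372 higher and 380 of 456 lower genes on the chromosomes it holds. Matches of letters are no evidence that a factor bound.

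Immediate early genes held the most higher members for their number among the gene lists examined. Of 32 tested, 11 lay above untreated cells in all 6 stressed libraries (34.4%, against 3.7% of all rows) and 0 below. With a common sum per library, under which 112 rows of the table lay higher and 274 lower, 6 of the 32 lay higher. Median-of-ratios scaling and quantile normalization each gave 10. Dusp1 and Jun passed the limma test and the other 9 did not: Egr1, Fos, Fosb, Jund, Klf4, Klf6, Maff, Rhob and Dusp4. Egr1, Fos and Fosb were under 1 RPKM in both untreated libraries. They passed the filter only through stressed libraries, so they could be members only on the higher side. The list's median log2 change was 0.60, with 0.34 after heat shock, 0.64 after osmotic stress and 0.83 after oxidative stress, against 0 over all rows. Egr1, a zinc finger transcription factor, had 4.06 and 1.75 RPKM after heat shock, 19.9 and 9.06 RPKM after osmotic stress and 2.77 and 2.09 RPKM after oxidative stress, against 0.488 and 0.474 RPKM in untreated cells. Its osmotic libraries were far above the rest, its replicates spread widely, and its average log2 change was 2.37 ± 0.36 (limma adjusted p = 0.0621). Fos, the AP-1 partner of Jun, had 2.53 and 1.26 RPKM after heat shock, 5.97 and 3.24 RPKM after osmotic stress and 5.62 and 4.29 RPKM after oxidative stress, against 0.331 and 0.410 RPKM in untreated cells (limma adjusted p = 0.0522). For Fos, heat shock gave the lowest stress levels, where for Jun it gave the highest. Fosb followed the pattern of Fos at lower levels, with 0.534 and 0.304 RPKM after heat shock, 2.91 and 1.62 RPKM after osmotic stress and 2.80 and 1.09 RPKM after oxidative stress, against 0.0518 and 0.0973 RPKM in untreated cells. Klf6, a Krüppel-like factor, had 28.4 to 78.3 RPKM in stressed cells and 19.7 and 20.8 RPKM in untreated cells, with its 2 highest values after heat shock.

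Genes of translational and proteotoxic stress held further higher members. The integrated stress response list had 3 of 23 higher (13%, against 3.7% of all rows) and 0 lower: Ppp1r15a, Ddit4 and Chac1. Ddit4, an inhibitor of the growth kinase mTOR, was nearly level among the stresses. It had 19.9 and 17.9 RPKM after heat shock, 16.9 and 18.2 RPKM after osmotic stress and 17.6 and 20.4 RPKM after oxidative stress, against 4.80 and 8.71 RPKM in untreated cells. The untreated libraries differed from each other more than the stresses did, and the limma adjusted p was 0.0585. Chac1, which degrades glutathione, had 7.95 to 15.9 RPKM in stressed cells and 6.36 and 7.50 RPKM in untreated cells. The ubiquitin and proteotoxic list had 3 of 14 higher (21.4%), namely Zfand5, Zfand2a and Ube2b, and 1 lower (7.14%, against 4.13% of all rows), the unfoldase Vcp. Zfand5, an activator of the proteasome, had 20.3 to 29.99 RPKM in stressed cells and 13.5 and 15.8 RPKM in untreated cells (limma adjusted p = 0.0816). Neither list had a higher member with a common sum per library: 0 of 23 and 0 of 14. Median-of-ratios scaling gave 3 and 2 higher, and quantile normalization 4 and 2.

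The p53 list had 4 of 24 members higher (16.7%, against 3.7% of all rows), none of them called by limma and 0 lower. Ccng1, cyclin G1, had 172 and 157 RPKM after heat shock, 155 and 110 RPKM after osmotic stress and 122 and 121 RPKM after oxidative stress, against 82.8 and 76.9 RPKM in untreated cells. Eda2r, a receptor of the TNF receptor family, was highest after oxidative stress, with 29.1 and 27.4 RPKM, against 8.53 and 8.44 RPKM in untreated cells. The list's median was 1.08 after oxidative stress, 0.33 after osmotic stress and 0.12 after heat shock on the log2 scale. Growth factor ligands and MAPK feedback genes had 3 of 16 higher (18.8%: Ereg, Pdgfa and Dusp16), NF-kB and inflammatory genes 3 of 18 (16.7%: Ccl7, Nfkbie and Birc3), and genes of RNA decay 3 of 22 (13.6%: Zfp36l1, Cnot7 and Pan3), each with 0 lower. Several of these members barely cleared the rule. The lowest stress and highest untreated values were 10.88 and 10.86 RPKM for Pan3 and 17.83 and 17.78 RPKM for Cnot7. They were 1.107 and 1.089 RPKM for Birc3, 1.809 and 1.778 RPKM for Nfkbie and 3.083 and 3.046 RPKM for Dusp16. The p53, growth factor and NF-kB lists had 0 higher and the RNA decay list 1 with a common sum per library. Under median-of-ratios scaling the p53, growth factor, NF-kB and RNA decay lists had 5, 4, 3 and 2 higher. Under quantile normalization they had 4, 4, 4 and 2. Zfp36l1, which binds AU-rich elements and speeds decay, had 5.20 to 6.70 RPKM after heat shock and osmotic stress and 2.72 and 3.01 RPKM after oxidative stress, against 2.31 and 2.35 RPKM in untreated cells.

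For heat shock chaperones the average passed the test without the stresses lying on 1 side. Of 25 tested, 5 were called higher by limma (Hspa1a, Hspa1b, Hsph1, Dnaja1 and Hsp90aa1), but 0 of these were members. Hspa1a, an inducible HSP70, had 283 and 252 RPKM after heat shock, 2.23 and 2.99 RPKM after osmotic stress and 1.00 and 0.713 RPKM after oxidative stress, against 1.92 and 2.32 RPKM in untreated cells. After heat shock the level was far above the rest, and the oxidative libraries lay below the untreated ones. Of the 8 fits that each left out 1 library, Hspa1a and Hspa1b stayed called in 4, Hsph1 and Dnaja1 in 3 and Hsp90aa1 in 1; none stayed called when either untreated library was left out. Hspa1a and Hspa1b are near-identical copies whose reads may have been split. The single chaperone member was Dnajb4, an HSP40, with 94.4 and 62.8 RPKM after heat shock, 13.3 and 12.8 RPKM after osmotic stress and 19.2 and 14.0 RPKM after oxidative stress, against 7.96 and 10.4 RPKM in untreated cells (limma adjusted p = 0.0585). It was no member with a common sum per library, and the list then had 0. The list had 1 higher and 1 lower under median-of-ratios scaling, and 2 higher and 0 lower under quantile normalization.

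**Figure D2:**
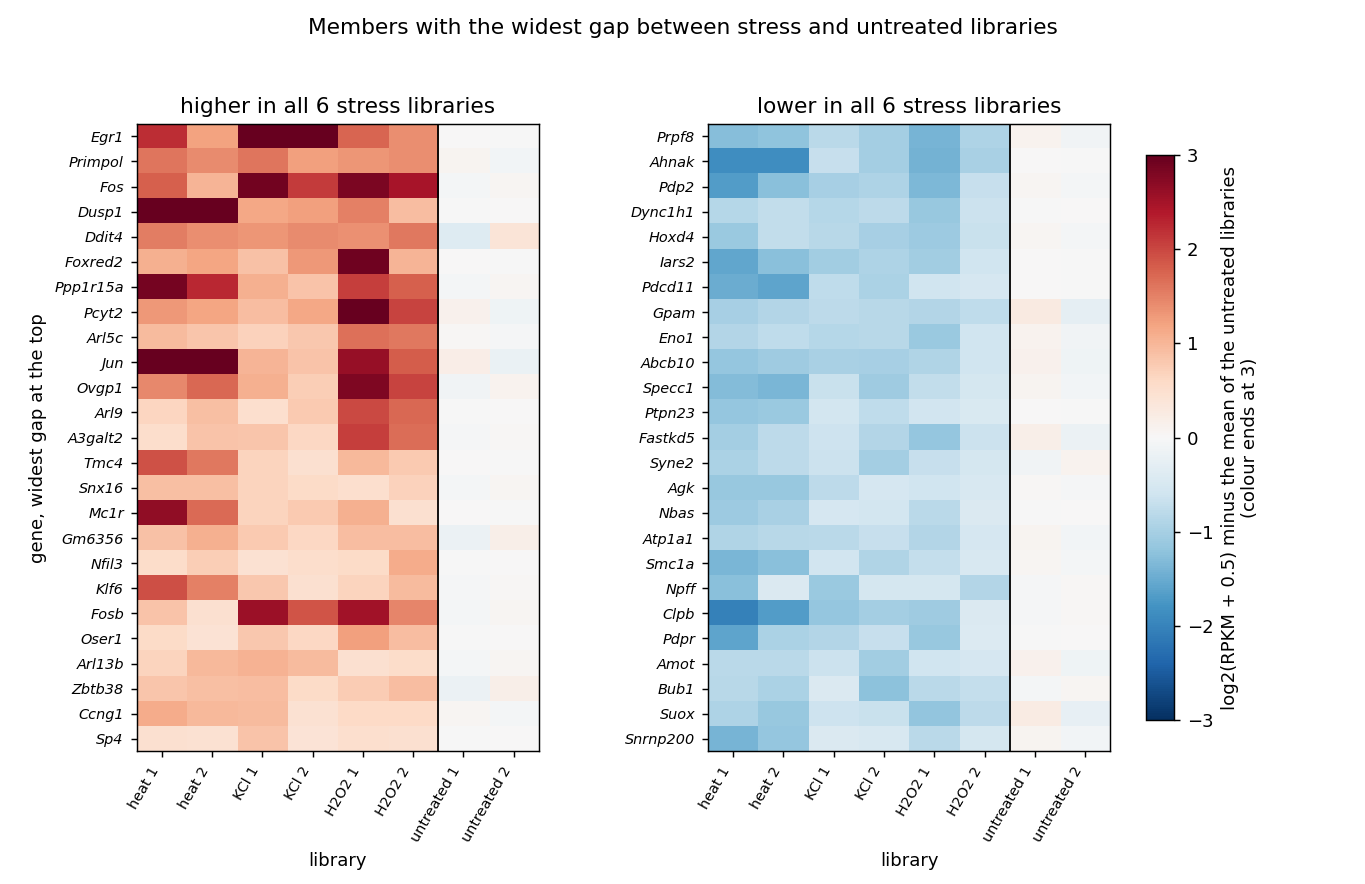
Colour gives log2(RPKM + 0.5) minus the mean of the untreated libraries for 25 higher members (left) and 25 lower members (right) with wide gaps, each matched by its symbol to a protein-coding gene and with no value at 0, one column per library; red is above and blue below untreated cells, and the colour ends at 3. Jun and Dusp1 are darkest after heat shock, Egr1 after osmotic stress, and most lower members are bluest in the heat shock columns.

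The protein-coding members that fell past the limma threshold, under names used once, included Pdcd11, Vcl and Aifm1. Pdcd11, whose yeast counterpart processes precursors of ribosomal RNA, had 17.9 and 17.0 RPKM after heat shock, 30.4 and 26.4 RPKM after osmotic stress and 34.1 and 36.3 RPKM after oxidative stress, against 51.7 and 51.4 RPKM in untreated cells. The average log2 change was -0.98 ± 0.11 (limma adjusted p = 0.0266). A second row of this gene, mKIAA0185, was lower in level and overlapped, with 0.439 to 2.99 RPKM in stressed cells and 1.15 and 0.718 RPKM in untreated cells.

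Vcl encodes vinculin, which links integrin adhesions to actin. It had 34.9 and 36.5 RPKM after heat shock, 36.1 and 32.5 RPKM after osmotic stress and 49.8 and 67.7 RPKM after oxidative stress, against 99.1 and 87.2 RPKM in untreated cells. Heat shock minus osmotic stress was 0.06 ± 0.18 on the log2 scale and did not pass the test (limma adjusted p = 0.859). The average log2 change was -1.16 ± 0.15 (limma adjusted p = 0.0460). Aifm1 encodes a mitochondrial flavoprotein that can promote cell death. It had 23.7 and 25.8 RPKM after heat shock, 42.4 and 36.8 RPKM after osmotic stress and 49.6 and 66.2 RPKM after oxidative stress, against 91.5 and 81.0 RPKM in untreated cells; its average log2 change was -1.16 ± 0.15 (limma adjusted p = 0.0460). For Pdcd11 and Aifm1 heat shock was lowest and oxidative stress nearest to untreated cells. Against untreated cells, oxidative stress did not pass on its own for Pdcd11, Vcl or Aifm1 (limma adjusted p = 0.127, 0.156 and 0.198). For Aifm1 osmotic stress did not pass either (limma adjusted p = 0.0554).

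Spna2, the older symbol of the spectrin gene Sptan1, was lower to about the same extent in every stress. It had 58.8 to 63.5 RPKM in the 6 stressed libraries, against 130 and 110 RPKM in untreated cells, with a log2 change of -0.95 ± 0.11 (limma adjusted p = 0.0385). The row under the current symbol Sptan1 had 0.574 to 2.18 RPKM in stressed cells and 2.81 and 1.47 RPKM in untreated cells, and these overlapped.

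The calls for single genes depended on single libraries. Leaving out either untreated library left 0 of the 9 named genes called, and leaving out either heat shock library left only Ppp1r15a. Without osmotic stress replicate 1, 4 were called, without oxidative stress replicate 1, 2, and without oxidative stress replicate 2, 5. Without osmotic stress replicate 2 all 9 remained called. Without both heat shock libraries 0 of the 9 were called, and likewise 0 in a fit with all stressed libraries as 1 group; 4 were called with a common sum per library and 4 with no filter on low values. Of the 8 fits that each left out 1 library, Spna2 stayed called only in that without osmotic stress replicate 2.

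Several lower members with wide gaps did not pass the test. Prpf8, the central scaffold of the spliceosome, had 38.6 and 40.6 RPKM after heat shock, 53.8 and 45.8 RPKM after osmotic stress and 35.2 and 49.3 RPKM after oxidative stress, against 102 and 86.7 RPKM in untreated cells (limma adjusted p = 0.0585). Dync1h1, the heavy chain of cytoplasmic dynein, had 47.4 to 67.7 RPKM in stressed cells and 104 and 107 RPKM in untreated cells. Ahnak, a giant scaffold protein of the cell cortex, had 207 and 207 RPKM after heat shock, 472 and 374 RPKM after osmotic stress and 282 and 383 RPKM after oxidative stress, against 768 and 748 RPKM in untreated cells (limma adjusted p = 0.0572). Iars2, the mitochondrial isoleucyl-tRNA synthetase, had 32.8 to 64.5 RPKM in stressed cells and 98.9 and 96.6 RPKM in untreated cells.

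The actin and adhesion list had 5 of 24 lower (20.8%, against 4.13% of all rows) and 0 higher: Vcl, Ahnak, Iqgap1, Itgb1 and Plec. Iqgap1, a scaffold for actin regulators, had 50.1 and 62.3 RPKM after heat shock, 64.2 and 68.3 RPKM after osmotic stress and 104 and 119 RPKM after oxidative stress, against 180 and 142 RPKM in untreated cells (limma adjusted p = 0.0572). The median log2 change of the list was -0.37. Fibroblast matrix genes had 2 of 21 lower (9.52%), Lamb1 and Fn1, with a median of -0.45. Fn1, fibronectin, had 127 and 93.4 RPKM after heat shock, 217 and 132 RPKM after osmotic stress and 239 and 202 RPKM after oxidative stress, against 405 and 276 RPKM in untreated cells. Fn1 is also 1 of the fibroblast markers. Their summed level, of which S100a4 was the largest part, was lower after heat shock, and the part of this in the result was not tested.

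Cholesterol synthesis held 6 lower members of 22 (27.3%, against 4.13% of all rows) and 0 higher, among them Cyp51, Nsdhl, Sqle and Ebp. None passed the limma test, and the median log2 change of the list was -0.37. With a common sum per library 3 of the 22 lay lower, against 8 under median-of-ratios scaling and 6 under quantile normalization. Cyp51, which removes a methyl group from lanosterol, had 64.8 and 74.4 RPKM after heat shock, 55.9 and 75.7 RPKM after osmotic stress and 64.8 and 82.1 RPKM after oxidative stress, against 100.4 and 92.2 RPKM in untreated cells (limma adjusted p = 0.229). Nsdhl, a later enzyme of the pathway, had 9.98 to 21.6 RPKM in stressed cells and 29.3 and 23.9 RPKM in untreated cells. Endoplasmic reticulum chaperones had 4 of 19 lower (21.1%: Hyou1, P4hb, Calr and Pdia4) and 1 higher (5.26%, against 3.7% of all rows: Dnajb9), with none called. This lower count depended on the scaling, with 1 under median-of-ratios scaling, 0 under quantile normalization and 0 with a common sum. Calr, calreticulin, had 249 and 272 RPKM after heat shock, 408 and 499 RPKM after osmotic stress and 585 and 604 RPKM after oxidative stress, against 667 and 674 RPKM in untreated cells, so that its oxidative level was close to the untreated one. Dnajb9, a co-chaperone of the unfolded protein response, had 3.43 to 6.01 RPKM in stressed cells and 2.12 and 3.04 RPKM in untreated cells.

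In the deposited values, genes of 3-prime end processing and termination held more lower members for their number than all rows did. Genes of transcription elongation stayed near the shares over all rows. The list of 3-prime end processing and termination had 5 of 41 lower (12.2%, against 4.13% of all rows) and 0 higher: Ints12, Cstf2t, Scaf8, Cpsf3 and Ints4. The lower count was 4 under median-of-ratios scaling, 2 under quantile normalization and 0 with a common sum per library. Ints12, an Integrator subunit, had 3.28 and 3.71 RPKM after heat shock, 4.05 and 3.78 RPKM after osmotic stress and 4.51 and 6.88 RPKM after oxidative stress, against 7.68 and 8.11 RPKM in untreated cells (limma adjusted p = 0.109). Cpsf3, the nuclease that cuts at poly(A) sites, had 9.84 and 10.4 RPKM after heat shock and 17.1 to 19.8 RPKM after the other stresses, against 22.7 and 20.4 RPKM in untreated cells. The transcription elongation list had 2 of 29 lower (6.9%), Ctr9 and Polr2a, and 1 higher (3.45%, against 3.7% of all rows), Ell2. With a common sum the elongation list had 1 lower and 0 higher. Median-of-ratios scaling gave 3 lower and 2 higher, and quantile normalization 3 lower and 1 higher. Polr2a, the largest subunit of RNA polymerase II, had 7.42 and 9.42 RPKM after heat shock, 20.7 and 15.5 RPKM after osmotic stress and 7.94 and 10.9 RPKM after oxidative stress, against 21.3 and 23.5 RPKM in untreated cells (limma adjusted p = 0.0904). The median change of the 3-prime end list was -0.04 and that of the elongation list 0.02, against 0 over all rows.

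**Figure D3:**
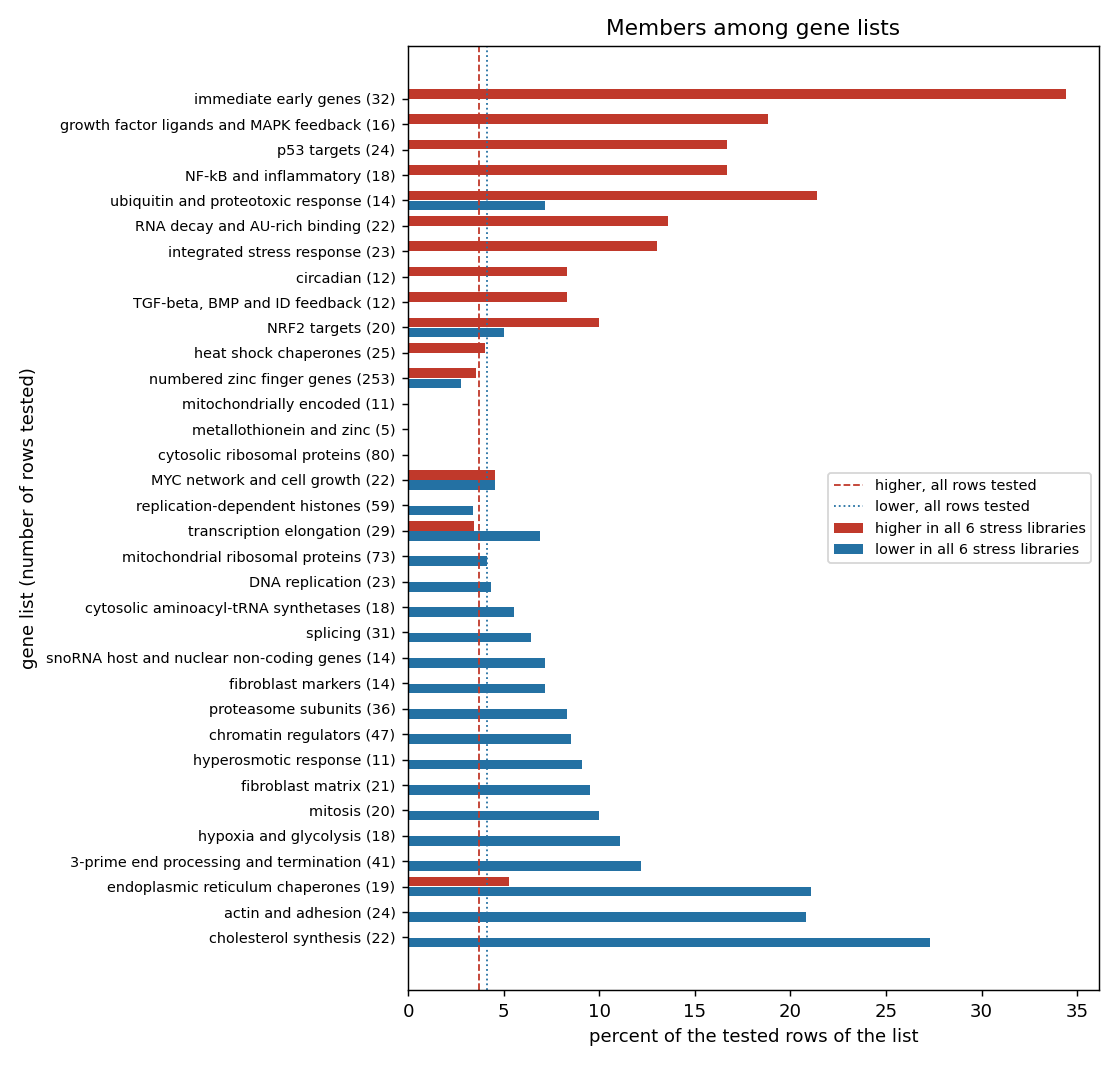
Percent of the tested rows of each gene list that lay higher (red) or lower (blue) than untreated cells in all 6 stress libraries, with the number of rows tested in parentheses; the dashed red and dotted blue lines mark the shares over all rows, 3.7% and 4.13%. Immediate early genes reach 34.4% higher, and cholesterol synthesis 27.3% lower. With a common sum per library these lists had 6 of 32 higher and 3 of 22 lower. Median-of-ratios scaling gave 10 and 8, and quantile normalization 10 and 6.

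Ribosomal protein genes held no member: 0 of 80 tested, against 3.7% higher and 4.13% lower over all rows. Quantile normalization gave 1 higher and 1 lower. Their median log2 change in the deposited values was -0.21, with -0.61 after heat shock and 0.09 after osmotic stress. Replication-dependent histones had 2 of 59 lower (3.39%, against 4.13% of all rows), Hist1h1b and Hist1h4f. The lower count was 3 under median-of-ratios scaling, 6 under quantile normalization and 12 with a common sum per library. These histones were likewise divided by stress, with medians of -1.31 after heat shock, 0.24 after osmotic stress and -0.89 after oxidative stress. Hist1h1b, a linker histone, had 122 and 95.5 RPKM after heat shock, 396 and 314 RPKM after osmotic stress and 219 and 230 RPKM after oxidative stress, against 489 and 461 RPKM in untreated cells. Histone genes are near-identical copies between which reads may have been split. Mitochondrially encoded genes had 0 members of 11.

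Members and the whole table differed in how the stresses were ordered. Among lower members, heat shock was the lowest of the stresses in 415 of 589 (70.5%), against 42.8% of all rows. Their median log2 change was -0.70 after heat shock, -0.42 after osmotic stress and -0.45 after oxidative stress. Among higher members the medians were 0.49 after heat shock, 0.55 after osmotic stress and 0.40 after oxidative stress. Over all rows they were -0.10 after heat shock, 0.20 after osmotic stress and -0.12 after oxidative stress. limma's F test found differences among the 3 stresses in 3584 rows (25.1%), 98 of the higher members (18.6%) and 89 of the lower members (15.1%). The rule used the same 6 values, so these shares are descriptive.

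The number of exons, which the rule did not use, differed between higher and lower members. The 468 lower members that matched a single protein-coding gene had a median of 16 exons in their longest annotated model, the 387 such higher members 7, and all 10257 such rows 9. Of genes with 20 or more exons, 23 of 1586 were higher (1.45%) and 168 were lower (10.6%). The class as a whole moved little, with a median log2 change of -0.09. Its median for osmotic stress minus untreated was 0.13 in replicate 1 and 0.00 in replicate 2. Of genes with 4 to 9 exons, 196 of 4131 were higher (4.74%) and 85 were lower (2.06%), with a median log2 change of 0.04. With a common sum per library the count of genes with 4 to 9 exons turned round, to 19 higher and 38 lower, whereas genes with 20 or more exons had 2 higher and 72 lower. Median-of-ratios scaling gave 325 higher and 164 lower with 4 to 9 exons, and 36 and 207 with 20 or more. Quantile normalization gave 289 and 173, and 28 and 216. Lower members were also more abundant, with a median untreated level of 19.2 RPKM, against 5.54 RPKM for higher members and 10.2 RPKM over all. The rule used the untreated values, so this difference and the classes of untreated level that follow are descriptive. Between 1 and 5 RPKM in untreated cells the medians were close, at 9 exons for lower members, 7 for higher members and 8 over all. Between 5 and 20 RPKM the median was 16 exons for lower members, 8 for higher members and 10 over all, and from 20 RPKM it was 17, 7.5 and 9. About the same share had their nearest upstream neighbour on the same strand: 49.9% of higher members, 51.2% of lower members and 49.2% over all.

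**Figure D4:**
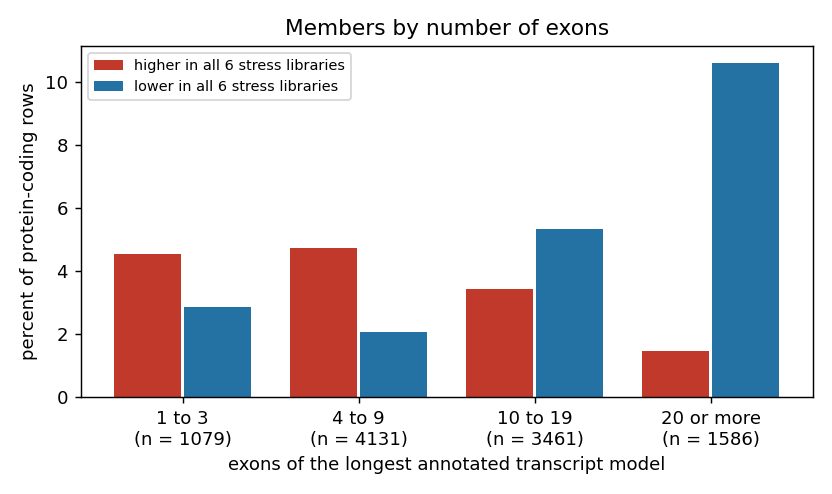
Percent of protein-coding rows that lay higher (red) or lower (blue) than untreated cells in all 6 stress libraries, by exons in the longest annotated model; n is the number of rows in a class. The lower share is 10.6% and the higher share 1.45% at 20 or more exons, where the median log2 change of all rows in the class was -0.09.

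Non-coding rows made up part of the called members. Snord110, a box C/D small nucleolar RNA, was listed at 0 in all 6 stressed libraries and at 265 and 122 RPKM in untreated cells. Mir210, the gene of a microRNA induced by hypoxia, was listed at 0 in the stressed libraries and at 1.54 and 2.12 RPKM in untreated cells. An exact 0 in RPKM can be a failed estimate for such short genes, so no fold is given. Snord110 and Mir210 passed the filter only through their untreated values, and the row C920011F04Rik only through stressed ones. The row C920011F04Rik had 58.4 and 39.9 RPKM after heat shock, 3.28 and 1.18 RPKM after osmotic stress and 0.448 and 0.284 RPKM after oxidative stress, against 0.199 and 0.141 RPKM in untreated cells (log2 change 2.82 ± 0.32, limma adjusted p = 0.0310). Lncppara, a long non-coding RNA, fell, with 2.18 and 1.56 RPKM after heat shock, 2.71 and 2.55 RPKM after osmotic stress and 4.24 and 5.68 RPKM after oxidative stress, against 10.9 and 8.82 RPKM in untreated cells (log2 change -1.60 ± 0.17, limma adjusted p = 0.0268). Of the 8 fits that each left out 1 library, Snord110 stayed called in all 8, Mir210 in 3, and C920011F04Rik and Lncppara in 2. When either untreated library was left out, Snord110 was the only one of these that stayed called.

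The rule drew its line through values that nearly touched. Csrnp1, just inside on the higher side, had a lowest stress value of 2.488 RPKM and a highest untreated value of 2.485 RPKM, and Smim14, just outside, had 8.513 and 8.515 RPKM. Pdcd2, just inside on the lower side, had a highest stress value of 39.18 RPKM and a lowest untreated value of 39.19 RPKM, and Plxna2, just outside, had 5.056 and 5.055 RPKM. The 2 tables, each with 1 library per group, were also read alone. On the higher side 1798 rows (12.6%) were above untreated in replicate 1 and 3207 (22.5%) in replicate 2, and 934 were in both, which is 51.9% and 29.1% of the lists. On the lower side 3222 rows (22.6%) and 2087 rows (14.6%) shared 1106, which is 34.3% and 53% of the lists.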

How the data were processed

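Nuclear-enriched RNA of 8 libraries (4 groups of 2) was sequenced from strand-specific, rRNA-depleted libraries, per the labels' protocols. The authors deposited RPKM per gene model in 2 tables, for replicates 1 and 2, per the file headers. Bowtie, SAMtools, Cufflinks and the genome build mm9 are named in the submitters' processing notes; their versions, the gene annotation and any filter were not stated there or in the labels. Columns were assigned from the table headers, with 0 left unmatched. Read depth is unknown; the RPKM worth of 1 fragment, estimated from few rows, put relative depth within a table between 0.971 and 1.07.

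Values were used as deposited, with 0.5 added before log2. The 14261 rows that reached 1 RPKM in 2 or more of the 8 libraries were tested. limma 3.58.1 (R 4.3.3) fitted 4 group means, moderated by empirical Bayes with a trend on the mean; the average of the 3 stresses minus untreated, each stress minus untreated, differences between stresses, and an F test among the stresses were two-sided, with Benjamini-Hochberg adjustment over all rows. The method was tested on simulated data. Of these rows, 723 share their name with another row; gene models, exons and symbols come from GENCODE M21 and RefSeq, matched by name. Members, the 35 gene lists and the rules were chosen with earlier results of these data known. Named genes were the called protein-coding members, with no value at 0 and a name used once, with the widest gap between the nearest stress and untreated values, and for each list up to 3 members per direction with the widest gap; other genes in the text were chosen after their values were seen, and some genes that the rule names are not reported here. Other scalings, filters, pseudocounts, fits and left-out libraries were tried.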

Additional observations from a re-analysis of the deposited data

Results flagged for a closer look

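Of the 9 named protein-coding genes, 8 differed among the 3 stresses by limma's F test, adjusted over all rows. Among those that rose, the adjusted p was 0.00588 for Dusp1, 0.0175 for Ppp1r15a, 0.0162 for Jun, 0.00241 for Ereg and 0.000873 for Kctd18. By level, heat shock was highest for Dusp1, Ppp1r15a, Jun and Kctd18, and oxidative stress for Ereg. Heat shock minus oxidative stress did not pass the test for Ppp1r15a (limma adjusted p = 0.104) or Jun (limma adjusted p = 0.103). Among those that fell, it was 0.0155 for Pdcd11, 0.0398 for Vcl and 0.0200 for Aifm1. Heat shock was lowest for Pdcd11 and Aifm1, and for Vcl heat shock and osmotic stress both lay below oxidative stress. Heat shock minus osmotic stress did not pass the test for Aifm1 (limma adjusted p = 0.068). Nor did heat shock minus oxidative stress for Vcl (limma adjusted p = 0.0505).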

How the results depend on the processing

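The analysis gave 527 higher and 589 lower rows outside the untreated range, 29 higher and 15 lower limma calls, and 3584 rows that differed among the stresses. Median-of-ratios scaling gave 48 higher and 32 lower limma calls and quantile normalization 55 and 32. Rows outside the untreated range were 785 higher and 795 lower under the first, and 657 and 879 under the second. A common sum per library, which moved the median log2 change over all rows to 0.33 after heat shock and -0.39 after osmotic stress, against -0.10 and 0.20 as deposited, gave 112 higher and 274 lower rows outside the untreated range, 157 and 80 calls, and 1160 rows among the stresses. In osmotic stress replicate 1 the sum of 1943000 RPKM used for that scaling included 1025000 RPKM of the row AC113316.1. A minimum of 5 RPKM gave 315 higher rows and 17 higher calls. No filter beyond 1 value above 0 gave 1568 and 64. Without the heat shock libraries there were 1030 higher rows, 3 higher and 5 lower calls and 184 rows among the stresses. Without the osmotic stress libraries there were 2225 lower rows, 66 and 44 calls and 1964 rows, and without the oxidative stress libraries 2314 higher and 1289 lower rows, 80 and 78 calls and 612 rows. Robust moderation gave 63 and 41 calls. A fit with only 2 groups, stressed and untreated, which puts the differences between stresses into the spread, gave 0 higher and 2 lower calls.

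The replicate numbers were not taken to pair the libraries, since the labels give no shared batch and the correlations of their deviations lay between 0.0573 and 0.276, with 1 of them under 0.1. A fit with the replicate block gave 82 higher and 74 lower calls and 6180 rows among the stresses, and all 44 calls were kept. Read within each table, which is the paired form of the rule, 934 rows were higher and 1106 lower in both. Leaving out single libraries gave 564 to 1758 higher and 612 to 2239 lower rows, 7 to 156 higher and 5 to 104 lower calls, and 107 to 3483 rows among the stresses; fewer libraries also make the rule easier to meet. Without the heat shock libraries the log2 change turned to -0.36 for Hspa1a, -0.59 for Hspa1b, -0.11 for Hsph1 and -0.03 for Dnaja1, none of them called. All 44 calls were kept under median-of-ratios and quantile scaling, robust moderation and without osmotic stress replicate 2, 32 under a common sum and 2 in the fit with 2 groups. Other causes of these shifts were not tested. Depth is unknown, so low RPKM carry no counting interval.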

Other observations

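Counts of the other gene lists follow, and none of their members was called. Over all rows, 3.7% lay higher and 4.13% lower. Chromatin regulators had 4 of 47 lower (8.51%) and 0 higher, among them Chd4, Chd3 and Sin3a. Chd4, an ATPase of the NuRD complex, had 45.7 and 52.0 RPKM after heat shock, 56.8 and 55.6 RPKM after osmotic stress and 57.3 and 74.7 RPKM after oxidative stress, against 91.0 and 107 RPKM in untreated cells (limma adjusted p = 0.0867). Polr1a, the largest subunit of RNA polymerase I and the lower member of the MYC and growth list, had 22.8 to 36.0 RPKM in stressed cells and 59.9 and 46.3 RPKM in untreated cells. Proteasome subunits had 3 of 36 lower (8.33%: Psmd1, Psmc3 and Psmd4), mitochondrial ribosomal proteins 3 of 73 (4.11%: Mrps5, Mrpl3 and Mrpl54) and splicing factors 2 of 31 (6.45%: Srrm2 and Hnrnpu), each with 0 higher. NRF2 targets had 2 of 20 higher (10%), Srxn1 and Gclm, and 1 lower (5%), Tkt. Srxn1, which repairs overoxidized peroxiredoxins, had 26.9 to 38.1 RPKM in stressed cells and 24.1 and 20.1 RPKM in untreated cells. Numbered zinc finger genes had 9 of 253 higher (3.56%) and 7 lower (2.77%), near the shares over all rows. Mitosis genes had 2 of 20 lower (10%: Bub1 and Mki67), hypoxia and glycolysis genes 2 of 18 (11.1%: Eno1 and P4ha1) and DNA replication genes 1 of 23 (4.35%: Rrm1), each with 0 higher. Cytosolic aminoacyl-tRNA synthetases had 1 of 18 lower (5.56%: Qars), snoRNA host and nuclear non-coding genes 1 of 14 (7.14%: Snhg5) and hyperosmotic response genes 1 of 11 (9.09%: Slc6a6), each with 0 higher. Circadian genes had 1 of 12 higher (8.33%: Nr1d2) and genes of TGF-beta, BMP and ID feedback 1 of 12 (8.33%: Skil), with 0 lower, and metallothionein and zinc genes had 0 members of 5. Several of these counts moved with the scaling. With a common sum per library, chromatin regulators had 1 lower, proteasome subunits 0, mitochondrial ribosomal proteins 1, splicing factors 1 and hypoxia and glycolysis genes 1, mitosis genes had 3, NRF2 targets, circadian and TGF-beta genes had 0 higher, and numbered zinc finger genes 0 higher and 2 lower. Quantile normalization gave chromatin regulators 2 lower, proteasome subunits 1 higher and 1 lower, mitochondrial ribosomal proteins 2 higher and 5 lower, DNA replication genes 3 lower and NRF2 targets 4 higher.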
